A study of Arabidopsis thaliana with 9 samples.

Results

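The 33 genes described here encode the SR proteins of Arabidopsis thaliana and other proteins that recognise splice sites. They were picked by locus code, for what they encode, out of 22903 listed genes, with earlier results of these data known. Of the 33, 20 are SR and SR-like genes and 13 are other factors: the glycine-rich proteins GRP7 and GRP8, the polypyrimidine tract binding proteins PTB1 to PTB3, the U2AF subunits, the U1 snRNP proteins U1-70K, U1A and U1C, and SKIP. They were measured by mRNA sequencing of seedlings aged 14 days, kept on 1/2 MS medium in days of 16 h light and 8 h dark. Wild-type seedlings were compared with aar2-1 and with aar2-2 seedlings, which carry alleles of AAR2 (AT1G66510). Each genotype had 3 libraries that the series' design text calls biological replicates. The lesion in each allele, the ecotype and the number of seedlings per library are not given in the sources used here. Because seedling tissue was measured in bulk, fewer cells of a type and less RNA per cell cannot be told apart in any value below.

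Splicing of a pre-mRNA begins when the U1 small nuclear ribonucleoprotein (snRNP) pairs with the 5′ splice site and the U2 auxiliary factor U2AF binds the polypyrimidine tract and the 3′ splice site. SR proteins combine RNA recognition motifs with a domain rich in arginine and serine, and they bridge exons, U1 and U2AF. Plants hold more SR genes than animals, some in subfamilies known only from plants, and many of them give several spliced transcripts, which a value per gene does not separate. In yeast, the AAR2 protein binds a core component of the U5 snRNP during its assembly.

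Values are CPM, the reads of a gene scaled to a common library total. The libraries held 24471217 to 27715504 reads over genes in wild type, 29163704 to 31304548 in aar2-1 and 32392645 to 35266334 in aar2-2. The wild-type libraries were thus the 3 with the fewest reads, and depth and mutation cannot be told apart. Wild type replicate 2 stood apart from the other wild-type libraries in genes that follow the day: the clock gene CCA1 was at 91.1 CPM in it and at 56.3 and 56.9 CPM in the others, and the light-harvesting gene LHCB2.1 was at 2482 CPM against 1521 and 1355 CPM. Counts are therefore also given without it. The summed CPM of 4 leaf markers was 41636 to 48305 in wild type, 43246 to 45657 in aar2-1 and 40462 to 46817 in aar2-2, and 2 of the 4 (LHCB1.3 and LHCB2.1) were lower in aar2-2. The sum of 4 root markers, nearly all of it PYK10, was lower in the mutants, at 375 to 400 CPM in wild type, 211 to 248 in aar2-1 and 196 to 272 in aar2-2, while CASP1 and TIP2;3 were at 1.47 CPM or less in every library. The sum of 4 flower markers was 0.531 to 0.722 CPM, 1.33 to 2.94 CPM and 1.31 to 1.84 CPM. The part of these markers in the results below was not tested.

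In wild type, the 33 genes spanned a wide range of levels per exon length. Exon length here joins the exons of all annotated transcripts of a gene, so a gene with many transcripts can come out lower per kb. The part of this in the order was not tested. GRP7 stood at 1140 ± 132 CPM per kb (SD, n = 3) and GRP8 at 278 ± 4.77 CPM per kb. Both lay above every other member, and their 3-library ranges overlapped neither each other nor the next gene. The most abundant SR genes per kb were SCL30, a plant-specific relative of SC35, at 44.3 ± 1.54 CPM per kb and SR34, a homologue of human SRSF1, at 42.6 ± 0.131 CPM per kb. SKIP followed at 39.6 ± 0.395 CPM per kb, then PTB3 at 37.4 ± 0.769 and U2AF35a at 37.2 ± 1.04 CPM per kb. Of the 32 neighbouring pairs in this order, 19 had wild-type ranges that overlapped, so much of the middle of the order is not resolved. At the low end were RS31a at 7.35 ± 0.491, SR34b at 4.70 ± 0.365 and SCL28 at 1.14 ± 0.261 CPM per kb, and none of these overlapped its neighbour. SCL28 rested on 19 to 49 reads per library and every other member on at least 238.

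**Figure D1:**
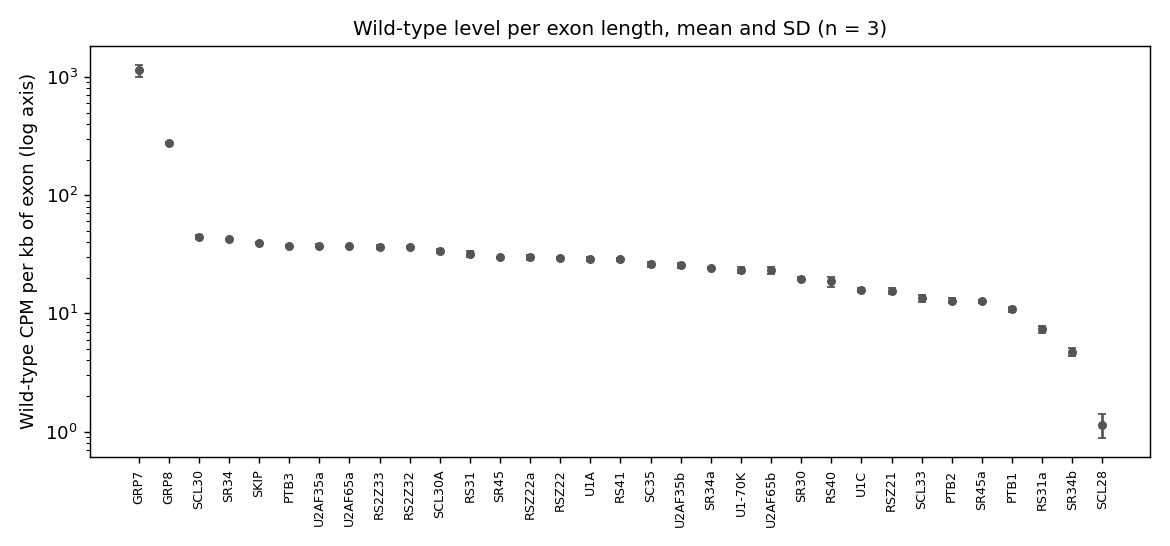
Wild-type level of each of the 33 genes in CPM per kb of annotated exon, on a log axis, as mean and SD of 3 libraries, ordered from high to low. GRP7 and GRP8 stand apart at 1140 and 278 CPM per kb, most genes lie between 10.8 and 44.3, and SCL28 is lowest at 1.14.

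More of these genes were higher in the mutants than lower. In aar2-1, 12 of the 33 passed the test (limma adjusted p under 0.05 over all genes tested), 10 higher and 2 lower; of all 18838 genes tested, 25.1% did, 11.5% higher and 13.6% lower. In aar2-2, 11 passed and all were higher; of all genes, 21.5% passed, 12.1% higher and 9.40% lower (10.2% and 12.2% with TMM scaling). The 9 members that were higher in both mutants were RSZ22a, RS2Z32, PTB2, U2AF65a, U2AF65b, U1-70K, U1A, U1C and SKIP, and 0 were lower in both, against 6.40% of all genes higher and 7.17% lower in both. The comparisons share the wild-type libraries, so a call in both is not 2 independent results. The fold changes, on the log2(CPM + 1) scale, were small: the members' median was 0.07 in aar2-1 and 0.09 in aar2-2, and the largest increase was 0.58. All genes tested had medians of -0.0037 and 0.0316.

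Most of the calls were in genes other than SR genes. Of the 20 SR and SR-like genes, 3 were higher in aar2-1 (15.0%) and 4 in aar2-2 (20.0%), and 0 were lower. Of all genes, 11.5% and 12.1% were higher, and 25.1% and 21.5% were called in either direction, so the SR share called was not above that of all genes. Of the 13 other members, 7 were higher and 2 lower in aar2-1, and 7 were higher in aar2-2 (53.8%). In 13 members all 6 mutant libraries lay above all 3 wild-type libraries, and in 0 did they all lie below; of all genes, 13.2% were above and 13.7% below. Without wild type replicate 2 the counts of members changed were 7 in aar2-1 and 6 in aar2-2, with 18.2% and 13.8% of all genes called. The 3 SR calls of aar2-1 became 1 without wild type replicate 1 or 2 or aar2-1 replicate 1, and the 4 of aar2-2 became 1 without wild type replicate 1 or aar2-2 replicate 1 or 2 and 2 without wild type replicate 2 or aar2-2 replicate 3. The 9 other calls of aar2-1 became 4 without wild type replicate 1 or 3, and the 7 of aar2-2 became 4 without any 1 wild-type library or aar2-2 replicate 1, and 3 without aar2-2 replicate 2. Over all members, leaving out wild type replicate 1 or 3 or aar2-1 replicate 1 gave 5, 6 and 7 in aar2-1 (12.4%, 16.8% and 15.7% of all genes), and leaving out wild type replicate 1 or 3 or aar2-2 replicate 1 or 2 gave 5, 7, 5 and 4 in aar2-2 (9.27%, 14.0%, 13.4% and 12.1% of all genes). In aar2-2, quantile normalization, limma without trend and edgeR gave 6, 7 and 7 of 33 members, shares near those of all genes (21.6%, 20.0% and 22.4%). TMM scaling and DESeq2 gave 8 each, with 22.3% and 24.3% of all genes called. All of these member calls were higher, as were 10.2% to 11.3% of all genes in the same settings.

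**Figure D2:**
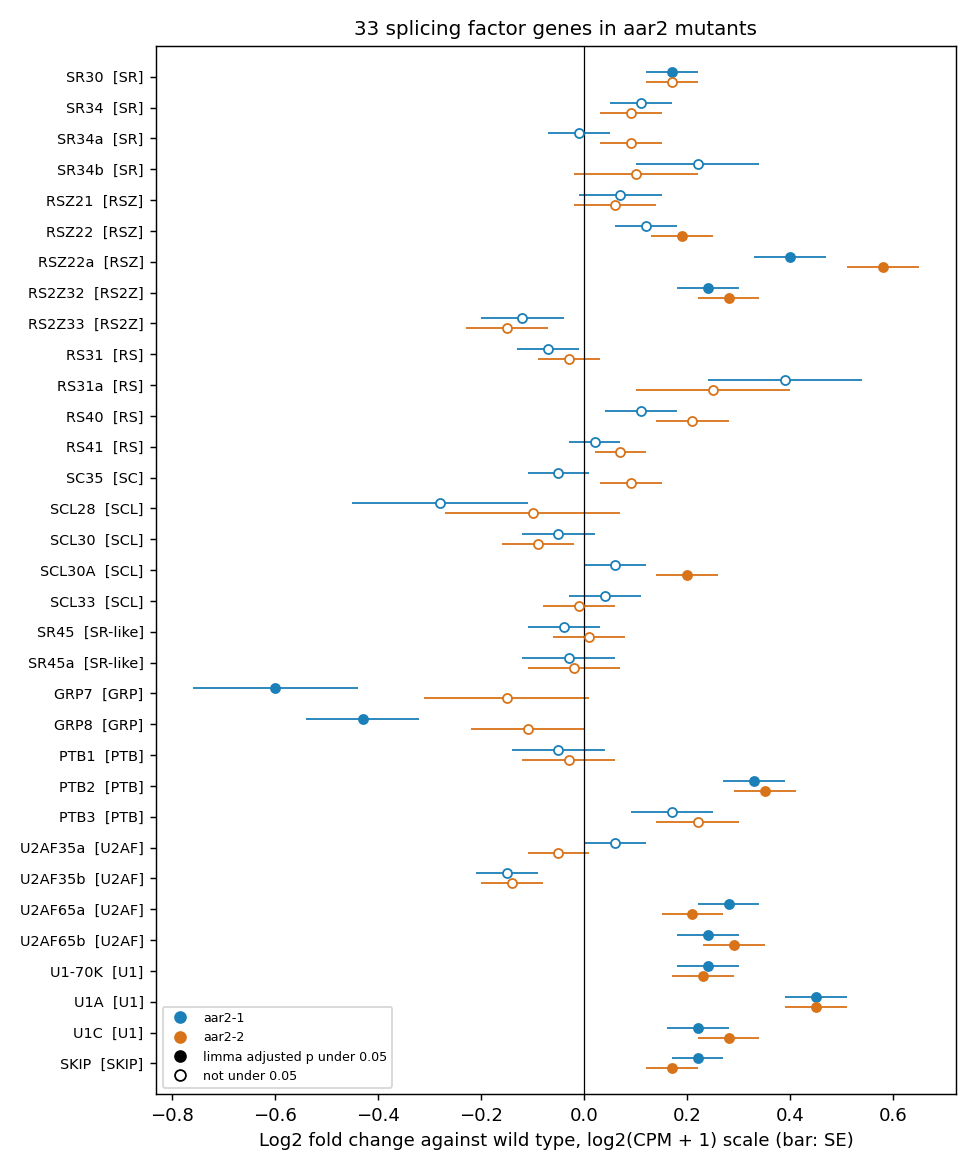
Log2 fold change of each of the 33 genes against wild type, on the log2(CPM + 1) scale, for aar2-1 and aar2-2, with bars of 1 SE; filled points passed the test and the bracket gives the subfamily. Filled points lie to the right of 0 except GRP7 at -0.60 and GRP8 at -0.43 in aar2-1.

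All 3 genes of the U1 snRNP were higher in both mutants. U1A (AT2G47580), which binds a stem loop of U1 RNA, was at 29.4, 28.2 and 30.3 CPM in wild type, 39.9, 38.6 and 42.4 CPM in aar2-1 and 39.1, 41.2 and 40.8 CPM in aar2-2. The 6 mutant libraries were all above the wild-type ones, with a log2 fold change of 0.45 (SE 0.06) in each mutant and limma adjusted p = 0.00146 and 0.00197. U1-70K (AT3G50670), the U1 protein that SR proteins contact, was at 66.7, 60.0 and 62.1 CPM in wild type, 75.7, 72.6 and 75.6 CPM in aar2-1 and 74.3, 77.1 and 69.9 CPM in aar2-2. Here too the groups did not overlap, and the log2 fold changes were 0.24 (SE 0.06) and 0.23, with adjusted p = 0.0191 and 0.0297. U1C (AT4G03120), which in yeast and animals steadies the pairing of U1 with the 5′ splice site, was at 19.9, 18.4 and 20.0 CPM in wild type, 22.9, 22.8 and 23.0 CPM in aar2-1 and 22.8, 24.5 and 24.1 CPM in aar2-2. The lowest mutant library was again above the highest wild-type library, with log2 fold changes of 0.22 (adjusted p = 0.0276) and 0.28 (adjusted p = 0.0147). Summed over the 3 genes, wild-type libraries held 107 to 116 CPM, aar2-1 libraries 134 to 141 and aar2-2 libraries 135 to 143.

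The U1A calls held in all 18 alternative settings in both mutants, whereas those of U1-70K and U1C did not. U1-70K lost its call in aar2-1 without wild type replicate 2 or 3 or aar2-1 replicate 1 (adjusted p 0.0575 to 0.0608), and in aar2-2 without wild type replicate 2 or 3 or aar2-2 replicate 1 or 2 (0.0772 to 0.103) and under quantile normalization (0.0515). U1C lost its call in aar2-1 without any 1 of the wild-type or aar2-1 libraries (0.0507 to 0.0815) or with wild type and aar2-1 alone in the fit (0.0568), and in aar2-2 without aar2-2 replicate 2 (0.0558). Of the exonic bases of U1A, 22.1% overlap exons of AT2G09945 on the other strand, and the strand setting of the counting is not given in the sources used here, so part of its reads is uncertain.

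The sequence before U1A is shown because this gene had the most stable increase of the U1 genes, and that before U1-70K because it rose with U1A and holds none of the motifs searched. Each is the 250 bases before the annotated gene start, 5′ to 3′ on the gene's strand, from RefSeq TAIR10.1, at chr2:19516937-19517186, plus strand, and chr3:18829685-18829934, minus strand. Capitals mark matches on either strand to the site II element TGGGCC or the telo box AAACCCTA, both common in promoters of plant genes for ribosome and growth functions.
U1A: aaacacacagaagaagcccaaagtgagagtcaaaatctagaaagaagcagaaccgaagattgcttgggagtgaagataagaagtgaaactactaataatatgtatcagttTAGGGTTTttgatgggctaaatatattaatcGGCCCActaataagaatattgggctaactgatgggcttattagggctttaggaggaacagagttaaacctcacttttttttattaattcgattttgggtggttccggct
U1-70K: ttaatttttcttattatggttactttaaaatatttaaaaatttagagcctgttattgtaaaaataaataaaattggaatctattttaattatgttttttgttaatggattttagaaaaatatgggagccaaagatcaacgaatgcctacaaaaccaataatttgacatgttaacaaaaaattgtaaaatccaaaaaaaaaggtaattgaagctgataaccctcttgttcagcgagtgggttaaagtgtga
The U1A window holds 1 telo box, first base 140 bases before the start, and 1 site II element at 109, both on the opposite strand. A telo box is present in 3.64% of 18746 such windows and a site II element in 16.9%. Of the 33 members, 16 hold a site II element (48.5%), and of the 9 higher in both mutants 5 do: RSZ22a, RS2Z32, PTB2, U2AF65a and U1A. In RS2Z32, 191 of the 250 bases lie in annotated exons of another gene, and in PTB2 12, against 0 in RSZ22a, U2AF65a and U1A. Some windows of the other members with the element do too, up to 244 bases in RS31a. A match is a description of these letters and not a binding site.

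Of the 4 genes for U2AF, the factor of the 3′ splice site, the genes of the large subunit rose and those of the small subunit did not pass the test. U2AF65a (AT4G36690), a large subunit that binds the polypyrimidine tract, was at 87.7, 85.7 and 86.0 CPM in wild type, 106, 105 and 106 CPM in aar2-1 and 106, 103 and 93.1 CPM in aar2-2. All mutant libraries were above wild type, aar2-2 replicate 3 being the nearest, and the log2 fold changes were 0.28 (SE 0.06, limma adjusted p = 0.00872) and 0.21 (SE 0.06, 0.0302). U2AF65b (AT1G60900), its paralogue, was at 46.0, 52.8 and 49.4 CPM in wild type, 59.3, 57.5 and 58.9 CPM in aar2-1 and 62.9, 60.8 and 58.1 CPM in aar2-2. Its groups did not overlap either, with log2 fold changes of 0.24 (adjusted p = 0.0219) and 0.29 (adjusted p = 0.0128).

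The small subunit contacts the AG at the end of the intron. U2AF35a (AT1G27650) was at 52.8, 50.6 and 53.3 CPM in wild type, 55.2, 51.1 and 57.3 CPM in aar2-1 and 48.7, 53.5 and 49.6 CPM in aar2-2. These groups overlapped, with log2 fold changes of 0.06 and -0.05 (limma adjusted p = 0.534 and 0.641). U2AF35b (AT5G42820) was at 74.6, 70.6 and 77.5 CPM in wild type, 62.7, 65.6 and 71.9 CPM in aar2-1 and 66.6, 67.4 and 67.2 CPM in aar2-2, with log2 fold changes of -0.15 and -0.14 (adjusted p = 0.109 and 0.138). Only aar2-1 replicate 3 reached into the wild-type range, and without it the aar2-1 value passed (adjusted p = 0.0417). Of the exonic bases of U2AF35b, 70.5% overlap exons on the other strand, and of U2AF35a 13.1%, so their values are uncertain. The U2AF65a call in aar2-1 held in all 18 alternatives; in aar2-2 it was lost without wild type replicate 1, 2 or 3 or aar2-2 replicate 1 or 2 (0.0754 to 0.0990), under quantile normalization (0.0894), without trend (0.0512) and with edgeR (0.0517). The U2AF65b calls were lost in aar2-1 without wild type replicate 1 or 3 or aar2-1 replicate 1 (0.0579 to 0.0920) and under quantile normalization (0.0546), and in aar2-2 without wild type replicate 1 (0.0567).

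The window before U2AF65a is shown because it holds 3 of the site II elements that mark many members, more than any other member has. It lies at chr4:17297762-17298011, minus strand (RefSeq TAIR10.1), with the elements at 169, 103 and 70 bases before the gene start in capitals.
U2AF65a: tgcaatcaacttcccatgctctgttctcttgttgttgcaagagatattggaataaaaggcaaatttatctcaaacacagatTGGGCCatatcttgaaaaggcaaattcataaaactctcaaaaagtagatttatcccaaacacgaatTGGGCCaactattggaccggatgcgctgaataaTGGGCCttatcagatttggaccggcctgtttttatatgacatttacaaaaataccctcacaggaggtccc
Its paralogue U2AF65b, which rose as well, holds 0 matches to any motif searched.

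SKIP (AT1G77180), a splicing factor gene known in Arabidopsis for its part in splicing of clock gene transcripts, was also higher in both mutants. It was at 95.7, 97.6 and 97.1 CPM in wild type, 110, 114 and 116 CPM in aar2-1 and 108, 113 and 107 CPM in aar2-2. The wild-type libraries lay close together and below all 6 mutant libraries. The log2 fold changes were 0.22 (SE 0.05, limma adjusted p = 0.0132) and 0.17 (SE 0.05, 0.0392). The end of SKIP overlaps AT1G77170 on the same strand. The aar2-1 call was lost without wild type replicate 1 (0.0563), and the aar2-2 call without any 1 wild-type or aar2-2 library (0.0701 to 0.131) and with limma without trend (0.0695), TMM scaling (0.0904), quantile normalization (0.146), edgeR (0.105) and DESeq2 (0.102).

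**Figure D3:**
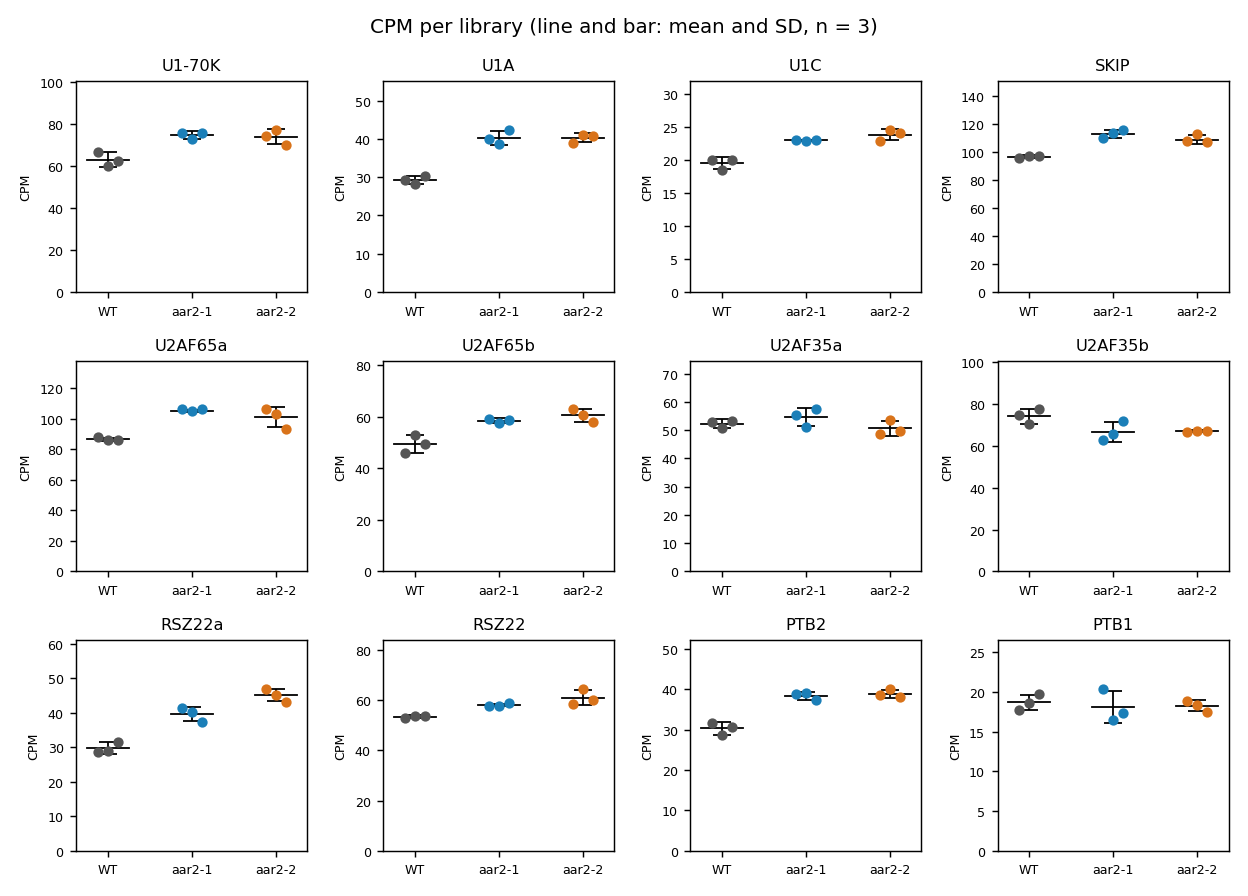
CPM of 12 members in each of the 9 libraries (points), with the mean and SD of 3 libraries per genotype; every axis starts at 0. Mutant points lie above all wild-type points in the panels of U1-70K, U1A, U1C, SKIP, U2AF65a, U2AF65b, RSZ22a, RSZ22 and PTB2, and overlap them for U2AF35a and PTB1.

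Among the SR genes, the largest change was in RSZ22a, of the RSZ subfamily, whose members carry 1 zinc knuckle and are related to human SRSF7. RSZ22a (AT2G24590) was at 28.6, 29.0 and 31.6 CPM in wild type, 41.4, 40.3 and 37.4 CPM in aar2-1 and 46.9, 45.2 and 43.2 CPM in aar2-2. The 3 genotypes formed 3 separate ranges. The log2 fold changes were 0.40 (SE 0.07, limma adjusted p = 0.00320) and 0.58 (SE 0.07, 9.44e-04), the largest on the log2(CPM + 1) scale among SR genes that passed. In edgeR, RS31a was at 0.45 and RSZ22a at 0.42 in aar2-1. The RSZ22a values passed in all 18 alternatives in both mutants. Its closest relative RSZ22 (AT4G31580) was at 52.9, 53.7 and 53.8 CPM in wild type, 57.7, 57.8 and 58.7 CPM in aar2-1 and 58.6, 64.5 and 60.0 CPM in aar2-2. All mutant libraries exceeded wild type by a small step, with log2 fold changes of 0.12 (adjusted p = 0.143) and 0.19 (0.0377). The aar2-2 call was lost without any 1 wild-type or aar2-2 library (0.0521 to 0.134) and with limma without trend (0.0610), TMM scaling (0.0786), quantile normalization (0.0734), edgeR (0.0815) and DESeq2 (0.0909). RSZ21 (AT1G23860) did not pass in either mutant, with log2 fold changes of 0.07 and 0.06.

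The window before RSZ22a is shown because its gene rose most among the SR genes. It lies at chr2:10449381-10449630, plus strand (RefSeq TAIR10.1), and its 1 site II element, in capitals, starts 73 bases before the gene on the opposite strand.
RSZ22a: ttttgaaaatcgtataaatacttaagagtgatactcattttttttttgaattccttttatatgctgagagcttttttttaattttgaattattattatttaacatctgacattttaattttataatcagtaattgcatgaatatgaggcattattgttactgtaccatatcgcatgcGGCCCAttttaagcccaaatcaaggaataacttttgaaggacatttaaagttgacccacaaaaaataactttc
RSZ22 holds 0 matches, and RSZ21, which did not pass, holds 2 site II elements.

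The SR subfamily proper, homologues of human SRSF1, holds SR30, SR34, SR34a and SR34b. SR30 (AT1G09140) was at 45.4, 42.8 and 44.5 CPM in wild type, 50.0, 51.2 and 48.4 CPM in aar2-1 and 49.4, 49.2 and 51.0 CPM in aar2-2. Each mutant had a log2 fold change of 0.17 (SE 0.05), with limma adjusted p = 0.0455 and 0.0509, so only aar2-1 passed although the mutants had the same value. The aar2-1 call was lost in 12 of 18 alternatives, among them leaving out any 1 library but aar2-1 replicate 3 (0.0600 to 0.121), while leaving out that library brought aar2-2 past the threshold (0.0426). SR34 (AT1G02840), the most abundant of the 4 per kb, was at 86.3, 86.7 and 86.2 CPM in wild type, 90.3, 93.9 and 96.0 CPM in aar2-1 and 88.4, 96.9 and 90.7 CPM in aar2-2. Its mutant libraries were all above wild type, yet the log2 fold changes of 0.11 and 0.09 did not pass (adjusted p = 0.171 and 0.277). SR34a (AT3G49430) and SR34b (AT4G02430) did not pass in either mutant, with log2 fold changes from -0.01 to 0.22.

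In the plant-specific RS2Z subfamily, which carries a pair of zinc knuckles, 1 of 2 genes passed. RS2Z32 (AT3G53500) was at 64.8, 65.8 and 67.7 CPM in wild type, 81.6, 77.2 and 76.7 CPM in aar2-1 and 83.6, 83.8 and 73.7 CPM in aar2-2. All mutant libraries were above wild type, with log2 fold changes of 0.24 (SE 0.06, limma adjusted p = 0.0217) and 0.28 (SE 0.06, 0.0161). RS2Z33 (AT2G37340) was at 64.9, 63.8 and 60.3 CPM in wild type, 52.7, 58.7 and 63.2 CPM in aar2-1 and 51.7, 58.1 and 61.2 CPM in aar2-2. Its groups overlapped, with log2 fold changes of -0.12 and -0.15 that did not pass (0.334 and 0.234), and 28.3% of its exonic bases overlap exons on the other strand. The RS2Z32 calls were lost in aar2-1 without wild type replicate 1 or 2 or aar2-1 replicate 1 (0.0542 to 0.0814), and in aar2-2 without wild type replicate 1 or aar2-2 replicate 1 or 2 (0.0542 to 0.0651).

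The RS subfamily, plant-specific proteins with a pair of RNA recognition motifs, had 0 calls. RS31 (AT3G61860), its most abundant member per kb, was at 38.7, 35.6 and 39.8 CPM in wild type, 36.5, 35.2 and 37.0 CPM in aar2-1 and 38.0, 38.4 and 35.4 CPM in aar2-2, and these ranges overlapped. RS31a (AT2G46610) had a log2 fold change of 0.39 (SE 0.15) in aar2-1 and 0.25 in aar2-2, with limma adjusted p = 0.0842 and 0.259. Its aar2-1 libraries ranged widely, at 15.4, 15.7 and 22.9 CPM over 12.4, 13.2 and 14.2 CPM in wild type. The aar2-1 value passed in 2 of 18 alternatives, DESeq2 (0.0495) and limma with replicate number as a block (0.0184). RS40 (AT4G25500) had log2 fold changes of 0.11 and 0.21 (0.296 and 0.0690), the latter passing without wild type replicate 3 (0.0259). RS41 (AT5G52040) had 0.02 and 0.07. Of the exonic bases of RS31a and RS41, 29.1% and 20.9% overlap exons on the other strand.

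SC35 (AT5G64200), a homologue of human SRSF2, was at 44.6, 40.1 and 43.3 CPM in wild type, 42.9, 41.1 and 39.5 CPM in aar2-1 and 45.9, 45.3 and 44.9 CPM in aar2-2. The mutants lay on either side of wild type, with log2 fold changes of -0.05 and 0.09 that did not pass (limma adjusted p = 0.582 and 0.325). Of the SCL genes, plant-specific relatives of SC35, SCL30A (AT3G13570) was higher in aar2-2 at the edge of the threshold. It was at 42.4, 42.6 and 45.4 CPM in wild type, 47.6, 44.9 and 43.2 CPM in aar2-1 and 51.0, 51.8 and 47.4 CPM in aar2-2. Only the aar2-2 libraries cleared the wild-type range, with log2 fold changes of 0.06 (0.549) and 0.20 (SE 0.06, 0.0494), and the aar2-2 call was lost in 14 of 18 alternatives, with adjusted p up to 0.150 without wild type replicate 1. SCL30 (AT3G55460) was at 57.9, 54.3 and 57.4 CPM in wild type, 56.9, 49.9 and 56.9 CPM in aar2-1 and 52.0, 55.0 and 52.4 CPM in aar2-2, with log2 fold changes of -0.05 and -0.09 (0.592 and 0.370). SCL33 (AT1G55310) and SCL28 (AT5G18810) did not pass either. SCL28 was at 0.607 to 1.67 CPM, and its log2 fold changes of -0.28 and -0.10 had an SE of 0.17.

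The SR-like genes had 0 calls. SR45 (AT1G16610), an SR-like protein related to human RNPS1 that in Arabidopsis binds U1-70K and U2AF35, was at 65.6, 64.5 and 64.4 CPM in wild type, 67.7, 59.3 and 62.9 CPM in aar2-1 and 64.9, 70.1 and 61.3 CPM in aar2-2. The mutant libraries lay on both sides of wild type, with log2 fold changes of -0.04 and 0.01 (SE 0.07, limma adjusted p = 0.726 and 0.927). SR45a (AT1G07350) had log2 fold changes of -0.03 and -0.02 (SE 0.09). Summed over the 20 SR and SR-like genes, wild-type libraries held 868 to 889 CPM, aar2-1 libraries 903 to 938 and aar2-2 libraries 934 to 969.

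Of the 3 PTB genes, whose products bind polypyrimidine tracts and in Arabidopsis control their own and each other's transcripts through alternative splicing, PTB2 (AT5G53180) rose in both mutants. It was at 31.7, 28.6 and 30.6 CPM in wild type, 38.8, 39.2 and 37.3 CPM in aar2-1 and 38.6, 40.1 and 38.2 CPM in aar2-2. The mutant libraries formed 1 cluster above wild type, with log2 fold changes of 0.33 (SE 0.06, limma adjusted p = 0.00462) and 0.35 (SE 0.06, 0.00490), which passed in all 18 alternatives. PTB1 (AT3G01150), its closest paralogue, was at 17.8, 18.6 and 19.7 CPM in wild type, 20.4, 16.5 and 17.4 CPM in aar2-1 and 18.9, 18.4 and 17.5 CPM in aar2-2. Its groups overlapped, with log2 fold changes of -0.05 and -0.03 (0.694 and 0.810). PTB3 (AT1G43190) was at 73.1, 72.0 and 70.1 CPM in wild type, 91.6, 77.7 and 74.8 CPM in aar2-1 and 78.5 to 88.4 CPM in aar2-2. Every mutant library was above wild type but the spread among them was wide, and the log2 fold changes of 0.17 and 0.22 did not pass (0.138 and 0.0789), except in aar2-2 without aar2-1 replicate 1 (0.0367) and with wild type and aar2-2 alone in the fit (0.0325).

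The only members that fell were GRP7 and GRP8, in aar2-1. These paralogous glycine-rich RNA-binding proteins are known to oscillate under the circadian clock in Arabidopsis and to repress their own and each other's transcripts through alternative splicing. GRP7 (AT2G21660) was at 1369, 1158 and 1458 CPM in wild type, 1007, 725 and 905 CPM in aar2-1 and 1228, 1417 and 969 CPM in aar2-2. The aar2-1 libraries lay below every wild-type library, whereas those of aar2-2 ran from below to within the wild-type range. In aar2-1 GRP7 fell by 0.60 on the log2 scale (SE 0.16, limma adjusted p = 0.0221) , and its log2 fold change in aar2-2 was -0.15 (SE 0.16, 0.521). GRP8 (AT4G39260) was at 314, 304 and 305 CPM in wild type, 262, 193 and 235 CPM in aar2-1 and 278, 325 and 257 CPM in aar2-2. The aar2-1 libraries were again all below wild type, and those of aar2-2 lay on both sides of it. Its log2 fold change was -0.43 (SE 0.11, 0.0225) in aar2-1 and -0.11 (SE 0.11, 0.517) in aar2-2. Without wild type replicate 2, the aar2-1 values were -0.70 (0.0270) for GRP7 and -0.44 (0.0528) for GRP8. The GRP7 call was lost without wild type replicate 1 or 3 or aar2-1 replicate 2 (0.0557 to 0.0777), and that of GRP8 without wild type replicate 1, 2 or 3 (0.0528 to 0.0777).

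Clock genes, a list also chosen with earlier results of these data known, were examined beside GRP7 and GRP8. Of 10, 4 were lower in aar2-1 (PRR9, GI, LUX and ELF4), against 13.6% of all genes, and the other 6 did not pass. In aar2-2, 1 was lower (LHY), a share near the 9.40% of all genes, with median log2 fold changes of -0.32 and -0.22; without wild type replicate 2 the call of GI was lost (limma adjusted p = 0.102). GI was at 37.6, 44.4 and 35.7 CPM in wild type, 31.8, 20.5 and 19.9 CPM in aar2-1 and 40.8, 41.8 and 25.5 CPM in aar2-2, so that aar2-2 replicate 3 was low for GI as for GRP7. ELF4 was at 32.5, 28.1 and 37.3 CPM in wild type and 20.8, 22.8 and 19.3 CPM in aar2-1. In aar2-2 ELF4 was at 26.5, 33.7 and 23.6 CPM, within or near the wild-type range. The time of day at which each library was harvested is not given in the sources used here, and the part of harvest time in the GRP7 and GRP8 values was not tested. Of the 2 heat genes tested, HSP90.1 passed as lower in aar2-1 (log2 fold change -0.61, limma adjusted p = 0.0235).

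**Figure D4:**
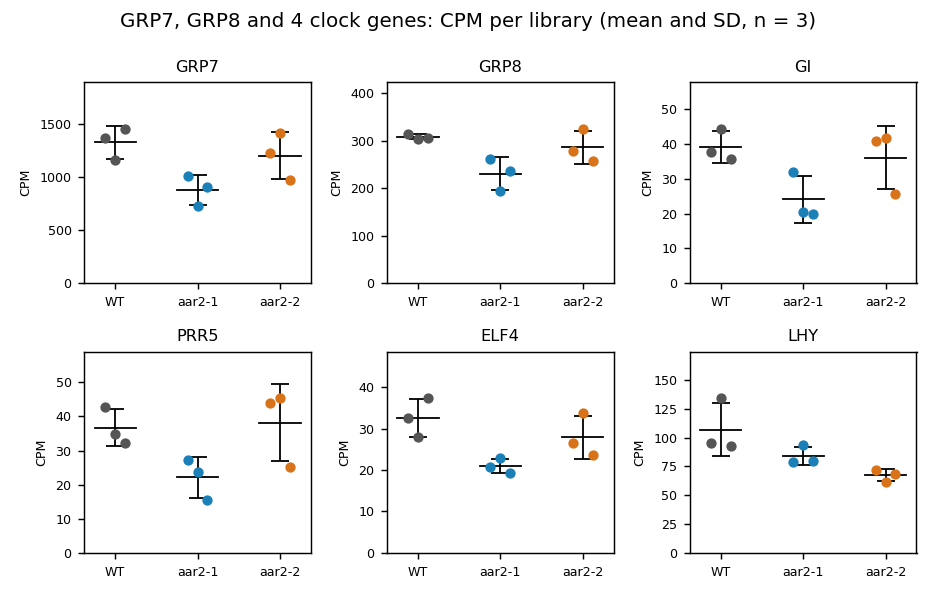
CPM per library of GRP7, GRP8 and 4 clock genes, with mean and SD of 3 libraries per genotype; every axis starts at 0. The aar2-1 libraries of GRP7 (725 to 1007 CPM), GRP8, GI, PRR5 and ELF4 lie below all wild-type libraries, whereas aar2-2 libraries overlap wild type in these genes and not in LHY.

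The windows before GRP7 and GRP8 are shown because they hold the evening element, a motif of clock-regulated promoters in Arabidopsis. They lie at chr2:9266558-9266807, minus strand, and chr4:18275217-18275466, minus strand (RefSeq TAIR10.1), with capitals for the evening element AAAATATCT and the site II element TGGGCC on either strand.
GRP7: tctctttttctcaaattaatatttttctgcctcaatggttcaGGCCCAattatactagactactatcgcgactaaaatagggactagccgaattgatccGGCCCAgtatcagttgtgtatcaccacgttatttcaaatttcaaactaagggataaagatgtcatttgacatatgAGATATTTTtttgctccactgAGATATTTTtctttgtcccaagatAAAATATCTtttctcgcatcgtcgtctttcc
GRP8: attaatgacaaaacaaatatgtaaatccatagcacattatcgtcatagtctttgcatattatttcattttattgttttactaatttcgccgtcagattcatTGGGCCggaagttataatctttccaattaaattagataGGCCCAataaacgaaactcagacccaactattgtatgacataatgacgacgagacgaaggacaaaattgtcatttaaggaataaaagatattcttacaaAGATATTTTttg
GRP7 holds 3 evening elements, at 76, 55 and 31 bases before the gene start, and GRP8 holds 1, at 12. Both also hold 2 site II elements. The evening element is present in 2.5% of the 18746 windows and in 0 of the 9 members higher in both mutants. The G-box CACGTG is present in 7.29% of all windows and in 2 members, SR34b and RS31. No searched motif overlapped another in any member's window.

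The balance within paralogue pairs, which does not depend on library scaling, was compared in 11 pairs by a two-sided exact permutation test of the 6 mutant against the 3 wild-type libraries, with p adjusted over the 11 pairs. The smallest p that 84 splits allow is 0.0119, and 0 pairs had an adjusted p under 0.05. Only 2 pairs reached that smallest p, and adjusted over 11 pairs it became 0.0655. Even fully separated pairs thus did not pass, and the count of 0 does not show that the ratios were unchanged. The ratio of RSZ22 to RSZ22a was 1.85, 1.85 and 1.70 in wild type, 1.39, 1.44 and 1.57 in aar2-1 and 1.25, 1.43 and 1.39 in aar2-2. No mutant library reached the wild-type range, and the log2 ratio differed by -0.35 (exact permutation p = 0.0119, adjusted p = 0.0655). The ratio of PTB1 to PTB2 was 0.563, 0.650 and 0.646 in wild type, 0.525, 0.422 and 0.467 in aar2-1 and 0.489, 0.460 and 0.459 in aar2-2. It was also separated in every library, by -0.40 (exact permutation p = 0.0119, adjusted p = 0.0655). RS2Z32 to RS2Z33 differed by 0.40 (exact permutation p = 0.0238, adjusted p = 0.0873), from 0.999 to 1.12 in wild type to between 1.20 and 1.62 in the mutants. U2AF35a to U2AF35b was separated in every library too, by 0.16 (exact permutation p = 0.0476, adjusted p = 0.131). Its ratio was 0.689 to 0.716 in wild type, 0.778 to 0.880 in aar2-1 and 0.732 to 0.794 in aar2-2. Overlap with exons on the other strand leaves the values of both genes uncertain. For GRP7 to GRP8 the difference was -0.11 (exact permutation p = 0.274). For U2AF65a to U2AF65b it was -0.02 (exact permutation p = 0.738), with ratios of 1.62 to 1.91 in wild type and 1.60 to 1.82 in the mutants.

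Between the mutants, 0 of the 33 members differed in limma (aar2-2 against aar2-1), where 0.0212% of all genes were called; 5 had an unadjusted p under 0.05, a share near that of all genes (3022 of 18838). They were RSZ22a, SC35, SCL30A, GRP7 and GRP8, all higher in aar2-2, and the median of all genes was also above 0 there (0.0401, or -0.0032 with TMM scaling). The lowest adjusted p was 0.240, for GRP7, whose log2 difference was 0.45 (SE 0.16), and for GRP8 it was 0.32 (SE 0.11, 0.242). The fall of GRP7 and GRP8 in aar2-1 is thus not shown to differ from the values in aar2-2. RSZ22a was 0.18 higher in aar2-2 (SE 0.07, 0.250), with no overlap of libraries. EdgeR and DESeq2 on recovered reads also called 0, with 4 and 2 members at an unadjusted p under 0.05, and they called 0.0212% and 2.03% of all genes. The mutated gene itself, AAR2, was at 7.11 to 8.27 CPM in wild type, 5.30 to 7.33 in aar2-1 and 4.11 to 5.28 in aar2-2, and passed as lower in aar2-2 alone.

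Other genes that act with these factors were examined in 4 lists of 42 genes. The lists were chosen with earlier results of these data known, so their shares beside those of all genes are a description. In each mutant 16 of the 42 passed, 15 higher and 1 lower, with 13 higher in both; of all genes 25.1% and 21.5% passed, 11.5% and 12.1% were higher and 6.40% were higher in both. The U1 snRNP auxiliary proteins, which assist U1 at the 5′ splice site, showed the largest share: 5 of 9 were higher in aar2-1 and 7 in aar2-2, with medians of 0.26 and 0.30. Those higher in both were LUC7A, LUC7B, PRP39A, PRP40B and RBM25. RBM25 was at 71.5, 70.2 and 74.0 CPM in wild type, 107, 107 and 103 CPM in aar2-1 and 111, 104 and 93.3 CPM in aar2-2. It rose by a log2 fold change of 0.55 (SE 0.07, limma adjusted p = 0.00100) and 0.51 (SE 0.07, 0.00197), with no overlap of groups. LUC7B was at 18.1, 19.1 and 18.4 CPM in wild type, 24.5, 26.0 and 27.7 CPM in aar2-1 and 26.9, 27.3 and 24.0 CPM in aar2-2, a log2 fold change of 0.47 in each (0.00253 and 0.00351). Of these U1 auxiliary genes, 3 passed in aar2-1 without wild type replicate 1, and 4 in aar2-2 without wild type replicate 1 or aar2-2 replicate 2. The count of the 42 fell to 8 in aar2-1 without wild type replicate 1 and to 10 without wild type replicate 2, and to 10 in aar2-2 without aar2-2 replicate 2. Of all genes, 12.4% were called in aar2-1 without wild type replicate 1 and 18.2% without wild type replicate 2. In aar2-2, 9.27% were called without wild type replicate 1 and 12.1% without aar2-2 replicate 2.

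In the list of branch point and U2 snRNP genes, 3 of 12 were higher in both mutants and 1 was lower in both, against 6.40% and 7.17% of all genes. The higher ones were U2A', SF3A1 and SF3A3. SF3A3, a subunit of the U2 snRNP, was at 25.4, 28.5 and 30.1 CPM in wild type, 40.7, 38.4 and 37.2 CPM in aar2-1 and 43.2, 41.7 and 44.2 CPM in aar2-2, well apart from wild type, with log2 fold changes of 0.46 and 0.61 (limma adjusted p = 0.00265 and 0.00118). SF3B2 was the 1 gene that fell, from 97.3, 95.8 and 98.6 CPM to 71.5, 82.5 and 73.6 CPM in aar2-1 and 76.1, 82.3 and 74.3 CPM in aar2-2. Its log2 fold changes were -0.36 and -0.32 (0.00592 and 0.0108), opposite in sign to the subunits of SF3A. The 4 calls of this list in aar2-2 became 2 without aar2-2 replicate 2, where 12.1% of all genes were called. Of 14 other RNA-binding splicing regulators, 6 were higher in aar2-1 and 5 in aar2-2, where 11.5% and 12.1% of all genes were. The 6 became 2 without wild type replicate 1 and 3 without wild type replicate 2 or aar2-1 replicate 3. In those fits 12.4%, 18.2% and 20.0% of all genes were called in aar2-1. CYP59, CYP63 and CYP95, cyclophilins of which several are known to bind SR proteins, and SAP18 and PININ, proteins linked to the exon junction complex, were higher in both. The CYP95 calls (limma adjusted p = 0.0473 in aar2-1 and 0.0322 in aar2-2) held in 6 and 7 of 18 alternatives, those of CYP59 in all 18. Of 7 SR protein kinase genes, 1 was higher in aar2-1 (AFC2, log2 fold change 0.26, adjusted p = 0.0294) and 0 in aar2-2. The AFC2 call was lost without any 1 wild-type library or aar2-1 replicate 3 (up to 0.0782).

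**Figure D5:**
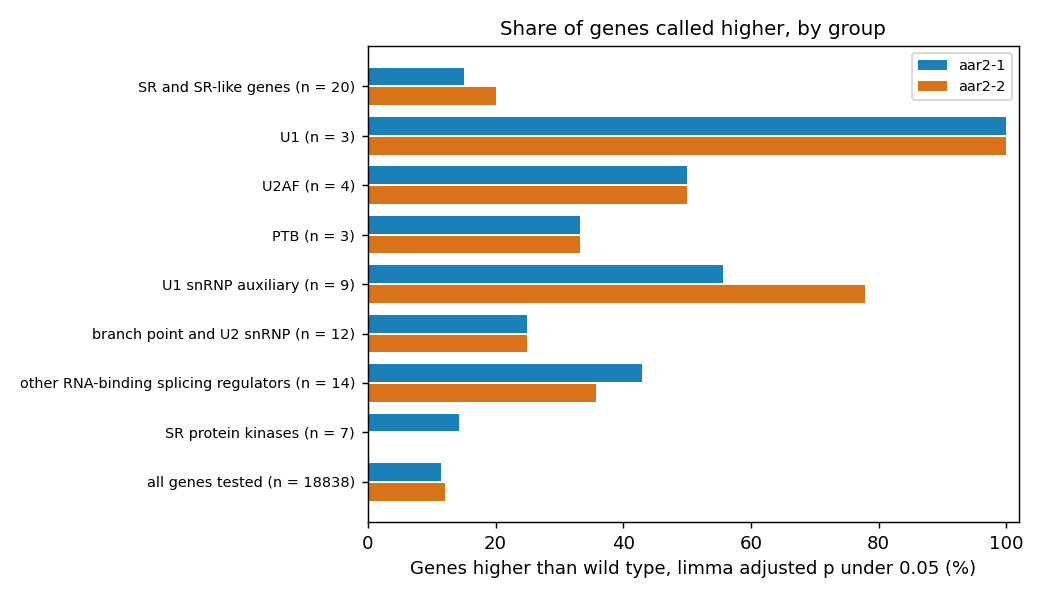
Share of genes higher than wild type (limma adjusted p under 0.05) by group, in aar2-1 and aar2-2, with the number of genes tested in brackets and all 18838 genes tested at the bottom. U1 genes reach 100% of 3 genes and U1 snRNP auxiliary genes 55.6% and 77.8% of 9, SR and SR-like genes 15.0% and 20.0% of 20, and all genes 11.5% and 12.1%.

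As annotated in TAIR10.1, all 33 members have at least 1 intron, against 85.1% of the 18747 protein-coding genes tested. The 20 SR and SR-like genes have a median of 4 annotated mRNAs per gene and the other members 2, against 1 for all. Their exon length was ordinary, with a median of 1823 bases for the members and 1800 for all. The members' median wild-type level, 49.4 CPM, was well above the median of all protein-coding genes tested. The shares of members called were set beside those of all genes without matching for level. The part of level in the difference between these shares was not tested.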

How the data were processed

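Messenger RNA of 9 seedling libraries was sequenced; genotype and replicate number were read from the sample titles. TRI Reagent and the NEBNext Ultra II RNA kit were used, per the labels' protocols. The authors deposited 1 table per library of CPM, reads per gene scaled to the library total; the unit was read from the values. Per the submitters' processing notes, TAIR10, featureCounts 1.64 and DESeq2 were used; the aligner, annotation, strand setting and filter on low genes are not given in the sources used here.

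CPM steps gave the worth of 1 read (0.0284 to 0.0409 CPM), and at least 99.9956% of values per library were whole reads within a tolerance of 0.02 reads. Limma 3.58.1 (trend) in R 4.3.3 was run on log2(CPM + 1), which understates changes of low genes, for the 18838 genes averaging at least 1 CPM, with all 9 libraries in 1 fit and Benjamini-Hochberg adjustment over all genes. Alternatives, with edgeR 4.0.16 and DESeq2 1.42.0 on recovered reads, are given in the closing section. The fit was tested on simulated data in which fewer genes changed, by more than any member did here. That test does not cover changes as small as those of the members. Replicates differed beyond sampling noise (chi-square over degrees of freedom 4.41 or more).

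The members and gene lists were chosen with earlier results of these data known. Values in every library are given for members called in at least 1 mutant and for the most abundant per kb of each subfamily; list genes called in both mutants in the same direction are named, and other list genes named were chosen after their values were seen. Exon lengths, overlaps and sequences come from RefSeq TAIR10.1, whose gene models may differ from those behind the values; 22767 of 22903 codes matched. Proteins were not analysed here.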

Additional observations from a re-analysis of the deposited data

How the results depend on the processing

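Against 12 members changed in aar2-1, 11 in aar2-2 and 9 in both, an adjusted p under 0.01 left 4, 3 and 3, with 9.02% and 6.25% of all genes called in the mutants. Leaving out each library in turn gave 5 to 12 in aar2-1, 4 to 12 in aar2-2 and 4 to 9 in both. Over the same fits, 12.4% to 24.9% of all genes were called in aar2-1 and 9.27% to 24.9% in aar2-2. In aar2-2, quantile normalization gave 6, limma without trend 7 and edgeR 7, while 21.6%, 20.0% and 22.4% of all genes were called. TMM scaling and DESeq2 gave 8 each there, with 22.3% and 24.3% of all genes. In both mutants quantile normalization gave 5, all higher, where 5.99% of all genes were higher in both and 14.1% changed in the same direction. Of 16 list genes changed in each mutant, 7 and 6 passed at an adjusted p under 0.01, and leaving out each library gave 8 to 15 in aar2-1 and 10 to 18 in aar2-2 (alternatives for the lists were chosen after seeing the data). The cause of these differences was not tested, except that fewer samples or a stricter threshold give fewer calls by construction. The count between mutants was 0 in every alternative run. That of paralogue ratios was too, which says nothing of stability: 3 against 3 libraries allow no p under 0.1, and leaving out a library raises the smallest p.

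Over single members, 1682 of 1781 alternative values kept their side of the threshold, 92 lost and 7 gained a call, and 0 called values changed sign. That total includes values that were not called and those between the mutants, so it does not measure how stable the calls were. Only the 12 calls in aar2-1 and the 11 in aar2-2 could be lost. Settings that leave fold changes as they are show no stability of direction. Leaving out members with at least 10% of exonic bases under exons on the other strand, chosen after seeing the data, gave 11 and 10. Replicate numbers were not shown to pair the libraries. Correlations of deviations between same-numbered libraries ran from -0.191 to 0.518, and those of replicate 3 were all positive (0.22, 0.263 and 0.518). Differently numbered libraries were not compared, so a shared deviation of replicate 3 cannot be told from these values. With the replicate block the counts were 12 in aar2-1, 8 in aar2-2, 8 in both and 0 between the mutants, and 14 and 16 of the list genes; RS31a gained a call in aar2-1 (0.0184), and SR30 in aar2-1 (0.0786) and RSZ22, SCL30A and SKIP in aar2-2 (0.0586, 0.0733 and 0.0649) lost theirs. SCL28 had the fewest reads, 19 to 49; what depth limits was not tested.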
